A study of Mus musculus with 8 samples.

Results

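Lysosomes are acidic compartments in which hydrolases take apart glycans, lipids and proteins that a cell has engulfed or recycled. Most soluble hydrolases reach them through sorting receptors, while glycosylated membrane proteins such as LAMP1 line the limiting membrane, and many of the genes carry E-box letters that the transcription factor TFEB and its relatives recognise. Microglia, the resident macrophages of the brain, clear debris and extracellular material through this system, and inherited loss of single lysosomal enzymes causes storage disorders that often affect the brain.

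The genes described here are 36 named lysosomal hydrolases, activators and membrane proteins with the regulator Tfeb. Cathepsins were left out. Of the 36, 35 were found by symbol among 55471 rows of the deposited table, each on a single row. Galns was found only by its Ensembl identifier, ENSMUSG00000015027, whose row carries the symbol Ddx19a. It lies in a stretch of chromosome 8 where 209 genes carry the symbol of another gene, so its values are given by the identifier. All 36 had a mean of 10 or more across the 8 libraries and so passed the filter on low values.

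The microglia came from hippocampi of C57/Bl6 mice at postnatal day 30. Mice had been injected 4 hours earlier, either with the cytokine interleukin-33 (IL-33, 4 libraries, replicates 1 to 4) or with phosphate-buffered saline (PBS, 4 libraries, replicates 5 to 8). The route and site of injection are not given in the labels. Each group held 2 females (replicates 1, 2, 5 and 6) and 2 males (replicates 3, 4, 7 and 8), and nothing else is said to differ between the groups. From perfused brains, cells with low CD45 and with CD11b were sorted, and those with Ly-6C were discarded. The labels do not say whether a library is 1 animal, so p-values measure the spread between these libraries, which may be partly technical.

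Libraries held 16827343 to 21483352 reads assigned to genes. Genes with at least 10 reads numbered 7958 to 10736 after IL-33 and 10311 to 11902 after PBS, with the lowest counts in IL-33 replicates 3 and 4. Markers of microglia were abundant in all 8 libraries. Their sum was 18897 to 30302 CPM (reads scaled to a common library total) after IL-33 and 33030 to 44670 after PBS. Of the 10 markers limma called 6 lower. It called 2.8% of all tested genes lower, and 8.34% of those with a mean of at least 1000. Siglech, Fcrls and Csf1r, which are among the 6, were not called in edgeR (adjusted p = 0.0695, 0.164 and 0.153). Summed markers of neurons reached at most 119 CPM, of astrocytes 475, of oligodendrocytes 325 and of border-associated macrophages 485. The last were at 127 to 165 after IL-33 and 258 to 485 after PBS, with 1 of 6 tested lower. That gene, Stab1, made up most of this sum, with mean values of 2340 after IL-33 and 5750 after PBS. No other marker of that list had a group mean above 140. Of the 6 tested, 4 differences were below 0 and 2 above. The neutrophil genes S100a8, S100a9, Ly6g, Chil3, Ngp and Camp were at 0 throughout, as were 6 of 8 lymphocyte markers.

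Values below are normalised read counts, which are read counts per gene divided by 1 factor per library. The libraries read transcript ends, so a count does not scale with transcript length. A difference is taken between group means of log2(value + 1), with PBS subtracted from IL-33, and is given with its standard error, and a gene was called at an adjusted p under 0.05 in limma over all 13877 tested genes. In these sorted pools, fewer cells expressing a gene and less RNA per cell cannot be told apart.

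IL-33 was followed by lower levels of a few hydrolases and by no called rise among the 36 genes. The heparan sulfate enzymes Sgsh and Naglu, the hexosaminidase subunit Hexa and the mannosidase Man2b1 fell, while 32 genes did not pass the test. The 4 called are 4 of 36 members, against 2.8% called lower, 3.06% called higher and 5.85% called either way among all tested genes. edgeR called 3 of the members lower and DESeq2 called 4, and neither called any higher. Over all 13877 tested genes edgeR called 318 lower and 439 higher, and DESeq2 called 877 lower and 790 higher. The difference was below 0 for 33 of the 36, as for 58.7% of all tested genes, and the median was −0.93 for the members and −0.40 for all tested genes. In edgeR, on recovered reads, these medians were −0.58 and −0.08, and 32 of the 36 were below 0. Groups did not overlap for 5 members, each lower after IL-33, where 7.41% of all tested genes did not overlap in that direction, 6.26% in the other and 13.7% in either. At an unadjusted p under 0.05 limma counted 10 members lower (27.8%) and 0 higher. Of all 13877 tested genes 1605 were lower (11.6%) and 1093 higher (7.88%). Of the 3116 tested genes with a mean of at least 1000, 530 were lower (17.0%) and 662 higher (21.2%) at that threshold. Sgsh, Galc, Smpd1 and Mcoln1, which are among the 10 members, had means under 1000.

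**Figure D1:**
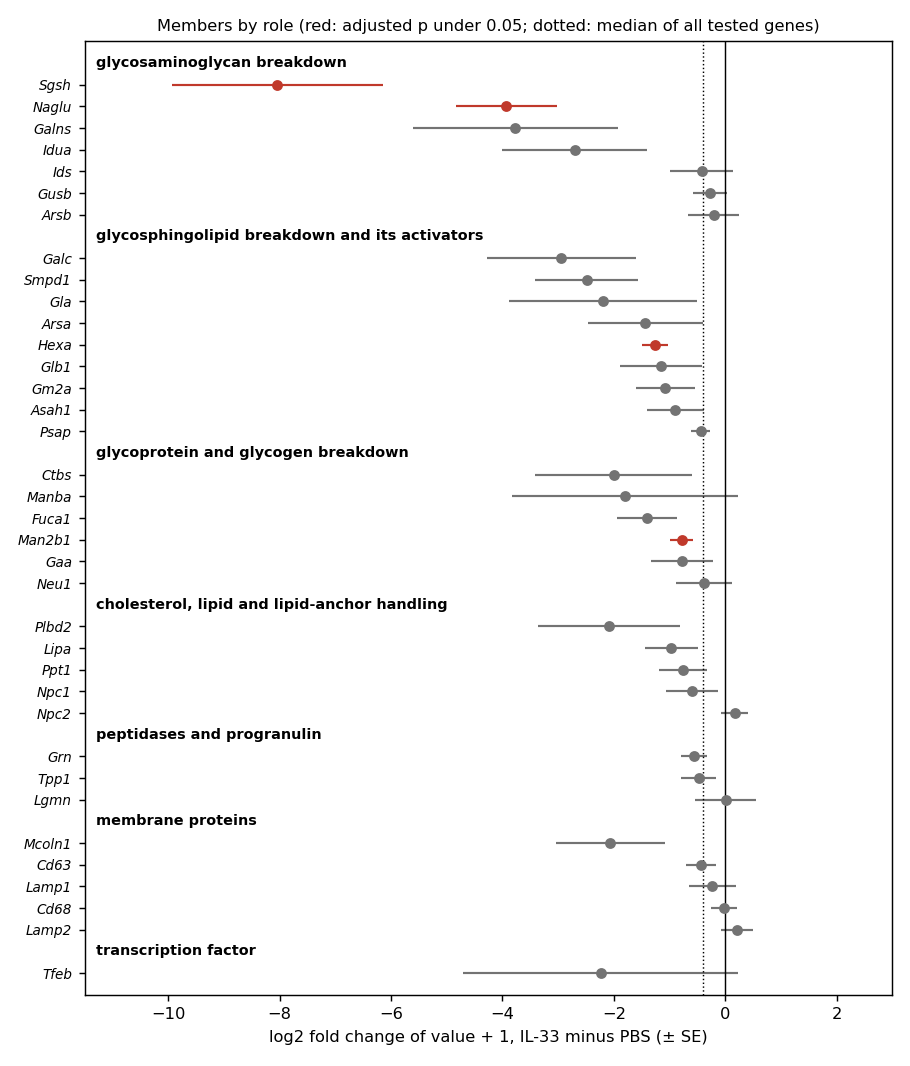
Difference in log2(value + 1) between IL-33 and PBS (x axis, IL-33 minus PBS) for each of the 36 genes, grouped by role. Points are limma estimates and bars are ± 1 standard error with 4 libraries per group; red marks an adjusted p under 0.05 and the dotted line is the median of all tested genes, −0.40. The 4 red points are Sgsh, Naglu, Hexa and Man2b1, and 33 of 36 points lie left of 0.

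The members were also set beside genes of like abundance. Among the 24 members with a mean of at least 1000 the median difference was −0.52, and 21 of 24 were below 0. Among all 3116 tested genes as abundant, the median was 0.08 and 46.8% were below 0. Of these abundant members 3 were called lower, where 8.34% of the 3116 genes were, and 0 were called higher, where 10.9% were. Of those 3116 genes 12.8% were lower with no overlap between groups. The other 12 members had a median of −2.22, against −0.72 for all less abundant tested genes. In edgeR these medians were −0.88 and −0.21. A mean of log2 values gives much weight to a single library near 0: Galns was at −3.77 in limma and −0.79 in edgeR. In edgeR the differences of Manba and Lamp1 were above 0, at 0.01 and 0.08, and that of Lgmn was −0.29.

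The upstream sequences of the called genes are shown because Sgsh and Naglu hold the E-box letters CACGTG there and Hexa and Man2b1 do not. Lamp1, which was not called, is shown for comparison with 4 copies. The sequences are from RefSeq (GRCm38.p6), on the gene's strand, and lie upstream of the RefSeq start. The window of Sgsh reaches 26 bases into the longer GENCODE model, and that of Naglu was ended early, 30 bases inside its GENCODE model. The marked letters of Naglu lie wholly inside its GENCODE model, and those of Sgsh lie across the start of its GENCODE model. Capitals mark CACGTG. Sgsh is at chr11:119355511-119355760 (minus strand), Naglu at chr11:101069844-101070041, Lamp1 at chr8:13158911-13159160, Hexa at chr9:59539290-59539539 and Man2b1 at chr8:85083019-85083268 (all plus strand).
Sgsh: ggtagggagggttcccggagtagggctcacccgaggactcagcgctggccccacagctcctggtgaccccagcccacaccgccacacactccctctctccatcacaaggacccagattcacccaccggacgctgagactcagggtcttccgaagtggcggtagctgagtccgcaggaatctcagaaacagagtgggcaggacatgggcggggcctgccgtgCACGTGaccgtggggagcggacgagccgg
Naglu: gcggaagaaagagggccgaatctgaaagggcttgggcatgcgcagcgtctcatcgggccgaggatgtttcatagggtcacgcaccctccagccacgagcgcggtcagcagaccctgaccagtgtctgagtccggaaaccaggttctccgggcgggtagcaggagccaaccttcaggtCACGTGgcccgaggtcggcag
Lamp1: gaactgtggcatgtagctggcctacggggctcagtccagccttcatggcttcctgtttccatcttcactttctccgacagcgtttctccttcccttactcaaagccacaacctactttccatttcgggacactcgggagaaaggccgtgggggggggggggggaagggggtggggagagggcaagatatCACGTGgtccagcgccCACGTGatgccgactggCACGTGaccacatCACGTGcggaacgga
Hexa: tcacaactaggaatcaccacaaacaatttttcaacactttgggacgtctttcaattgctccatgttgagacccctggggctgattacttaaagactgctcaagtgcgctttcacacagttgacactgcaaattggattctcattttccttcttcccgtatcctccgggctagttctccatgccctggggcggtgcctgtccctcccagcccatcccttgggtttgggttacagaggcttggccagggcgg
Man2b1: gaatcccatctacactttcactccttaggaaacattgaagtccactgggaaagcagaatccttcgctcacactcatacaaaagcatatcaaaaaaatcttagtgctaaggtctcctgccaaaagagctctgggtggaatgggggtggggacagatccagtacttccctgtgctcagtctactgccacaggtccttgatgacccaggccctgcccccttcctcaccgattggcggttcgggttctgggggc

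RefSeq promoter windows, from 250 bases before to 50 after the start, were found for 32 of the 36 genes (36 windows). CACGTG, which reads the same on both strands, occurred in 9 of these 36 windows (25%) and in 7.15% of all 32851 windows. The 9 genes were Arsa, Gaa, Gla, Glb1, Lamp1, Lgmn, Mcoln1, Naglu and Sgsh. The longer TCACGTG, on either strand and containing the first motif, was searched after those matches were seen and occurred in the windows of the same 9 genes and in 3.77% of all windows. TCACGTGA, on either strand, occurred in 2 member windows, those of Gla and Mcoln1 (5.56%), and in 0.974% of all. Median GC content was 56.3% in member windows and 52.7% in all windows. Of the 9 genes with CACGTG 2 were called lower, as were 2 of the 23 without it. The median difference was −1.43 with the letters and −0.76 without in limma, and −0.82 and −0.40 in edgeR. A match is a description of the letters only, and a link between the letters and the differences was not tested.

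Glycosaminoglycan breakdown held the largest differences. The lysosome removes these sulfated chains from the matrix and the cell surface, 1 sugar or sulfate at a time. Of 7 members 2 fell and none rose, and all 7 differences were below 0. Among all tested genes 2.8% were called lower, 3.06% were called higher and 58.7% were below 0. The median of the 7 members was −2.70 in limma and −0.79 in edgeR, and Idua and Galns, each with IL-33 libraries near 0, differed most between the tools. Sgsh, the sulfamidase that removes the N-linked sulfate of heparan sulfate (ENSMUSG00000005043, chr11:119343425-119355536), was at 229, 969, 613 and 579 in PBS replicates 5 to 8. After IL-33 it was at 2.08, 0.846, 0 and 1.91 in replicates 1 to 4. The groups did not overlap, and the IL-33 libraries held 2, 1, 0 and 2 reads, none above a floor of 3 reads per library.

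The log2 difference of Sgsh was −8.04 ± 1.90 (adjusted p = 0.0142, and 0.00128 in edgeR). Pooled over the libraries it had 5 reads after IL-33 and 2944 after PBS. The ratio of PBS to IL-33, allowing for the library factors, was 501 (95% exact interval 215 to 1545, counting error only). Reads of these libraries are not independent molecules. The call was lost without PBS replicate 6, 7 or 8, where the adjusted p was 0.0663, 0.0705 and 0.0620. The opposite-strand gene Card14, which shares 839 exon bases with Sgsh, had a mean of 0.0.

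Naglu, the N-acetylglucosaminidase that acts 2 steps later on the same chain (ENSMUSG00000001751, chr11:101070012-101077672), was at 938, 3029, 2124 and 1543 after PBS. After IL-33 it was at 633, 71.9, 22.7 and 156. The highest IL-33 library was below the lowest PBS library, and the IL-33 values spread widely. The difference was −3.93 ± 0.91 (adjusted p = 0.0117, and 0.0180 in edgeR), and the IL-33 mean was 11.6% of the PBS mean. The call was lost without PBS replicate 6 (adjusted p = 0.0797) or 7 (0.0558), and without the variance trend (0.105).

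The other 5 members of this group did not pass. Idua, the iduronidase, was at 1590.2, 727, 1142 and 875 after PBS, and 731, 399, 1.97 and 745 in the IL-33 libraries (−2.70 ± 1.30, adjusted p = 0.263). Its groups overlapped, and IL-33 replicate 3 alone was near 0. Ids, the iduronate sulfatase, had means of 1197 ± 823 after IL-33 and 1546 ± 854 after PBS (SD, n = 4 each). Gusb, the glucuronidase, was at 4447 ± 828 and 5477 ± 1598, and Arsb, a sulfatase of dermatan sulfate, at 2050 ± 969 and 2354 ± 1124. The Galns row, for the sulfatase of keratan sulfate, was at 691, 57.5, 0 and 4.78 after IL-33 and at 206, 608, 283 and 223 after PBS (−3.77 ± 1.85, adjusted p = 0.272). The highest of its 8 values and the 3 lowest were all in the IL-33 group.

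**Figure D2:**
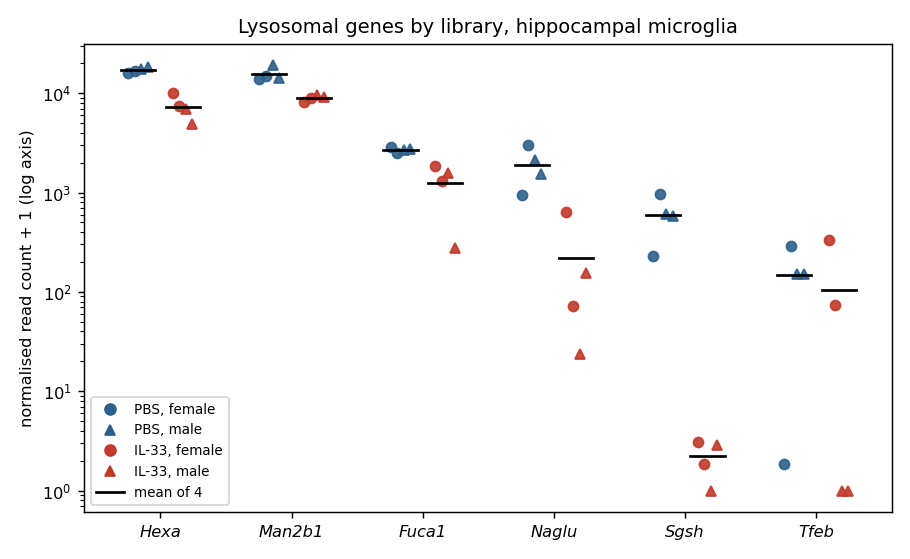
Normalised read count + 1 on a log axis for 6 genes, with 1 point per library, circles for females, triangles for males and a black bar at the mean of 4. IL-33 and PBS points do not overlap for Hexa, Man2b1, Fuca1, Naglu and Sgsh; for Tfeb they do, with values of 0 or 1 read in 3 of 8 libraries.

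Heparan sulfate is taken apart by a fixed series of enzymes, and 2 of the 7 described here were called lower. This series was put together after the values were seen, from genes already on the lists. Beside the members Ids, Idua, Sgsh, Naglu and Gusb it holds the acetyltransferase Hgsnat and the sulfatase Arsg. All 7 differences were below 0, and Sgsh and Naglu were called. Of all tested genes 58.7% were below 0 and 2.8% were called lower. Hgsnat, which acts between Sgsh and Naglu, averaged 673 ± 111 in PBS and 475 ± 369 in IL-33 libraries (−1.51 ± 1.06, adjusted p = 0.456). Its IL-33 values were 442, 12.7, 533 and 911, so that 1 library was far below the others. Arsg had 0 in IL-33 replicates 1 and 4, 1.69 in replicate 2 and 295 in replicate 3, against 87.9 to 937 after PBS (adjusted p = 0.141).

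**Figure D3:**
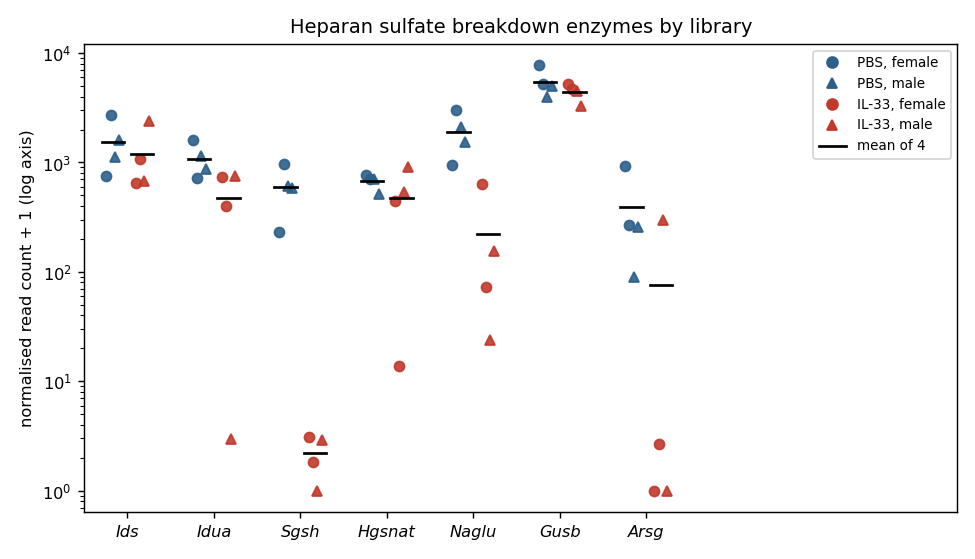
Normalised read count + 1 on a log axis for 7 enzymes of heparan sulfate breakdown, 1 point per library, circles for females, triangles for males, black bars at the mean of 4. Sgsh is at 0 to 2.08 in every IL-33 library and Naglu has no overlap between groups, while Ids, Gusb, Idua, Hgsnat and Arsg overlap.

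In glycosphingolipid breakdown, where gangliosides, sulfatide and ceramide are degraded with the help of small activator proteins, 1 of 9 members fell. All 9 differences were below 0, with a median of −1.27 in limma and −0.82 in edgeR. Limma called 2.8% of all tested genes lower, and 8.34% of those with a mean of at least 1000. Differences below 0 made up 58.7% of all tested genes. Hexa, the alpha subunit of hexosaminidase A (ENSMUSG00000025232, chr9:59539540-59565109), was at 15878, 16746, 17313 and 18489.8 in the PBS libraries. In the IL-33 libraries it was at 9986, 7437, 6859 and 4941. The PBS values lay close together, each above every IL-33 value. The difference was −1.27 ± 0.23 (adjusted p = 0.00187, and 0.00728 in edgeR), an IL-33 mean at 42.7% of the PBS mean. This call held without each single library and was lost without the variance trend (adjusted p = 0.230). The opposite-strand gene Tmem202, which shares 255 exon bases with it, had a mean of 23.2.

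Gm2a did not pass. This activator presents ganglioside to the enzyme and was at 2572, 2613, 3050.2 and 3147 after PBS, and 2393, 1586, 2591 and 333 in the IL-33 libraries (−1.07 ± 0.54, adjusted p = 0.286). One IL-33 value lay within the PBS range and replicate 4 was far below it.

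Psap, the precursor of the 4 saposins and the most abundant member, was at 71025, 76728, 64328 and 78237 after PBS. After IL-33 it was at 44034, 52141, 81582 and 42627. IL-33 replicate 3 was the highest of all 8 libraries and the other 3 were the lowest. The difference was −0.45 ± 0.17 (adjusted p = 0.149). Without IL-33 replicate 3 it was −0.65 with an adjusted p of 0.0182, and under quantile normalization the adjusted p was 0.0111.

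Smpd1, the acid sphingomyelinase, was at 299.8, 1327, 1324 and 1303 after PBS, and 528, 31.3, 149 and 270.3 in the IL-33 libraries (−2.49 ± 0.93, adjusted p = 0.134). PBS replicate 5 lay within the IL-33 range and the other 3 PBS values far above it. Galc, which removes galactose from galactosylceramide, was at 189, 34.7, 3.95 and 1040.1 after IL-33, a spread wider than its PBS range of 409 to 856. Its difference was −2.94 ± 1.34 (adjusted p = 0.227), and without IL-33 replicate 4 it was −4.20 with an adjusted p of 0.0429. Asah1, Glb1, Arsa and Gla, which act on ceramide, gangliosides, sulfatide and globosides, had differences of −0.90, −1.16, −1.43 and −2.19, with adjusted p between 0.349 and 0.503.

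Among the 6 enzymes of glycoprotein and glycogen breakdown 1 fell. This stands beside 2.8% called lower of all tested genes and 8.34% of those with a mean of at least 1000. Man2b1, the alpha-mannosidase of N-glycans (ENSMUSG00000005142, chr8:85083270-85098282), was at 13898, 14865, 19088 and 14223 after PBS and at 8233, 8876, 9685 and 9138 after IL-33. The IL-33 values were the tightest of any member in that group, with a coefficient of variation (SD over mean) of 6.71%. The difference was −0.78 ± 0.21 (adjusted p = 0.0301). The call was lost in edgeR (adjusted p = 0.0834), without the filter on low values, without the variance trend and without IL-33 replicate 1 or 2 or any PBS replicate, with adjusted p of 0.0527 to 0.419.

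Fuca1, the alpha-fucosidase, did not overlap between groups and did not pass. It was at 2871, 2499.8, 2675 and 2726 after PBS, and 1864, 1314, 1576 and 274 in the IL-33 libraries (−1.41 ± 0.53, adjusted p = 0.145). The PBS values differed little, with a coefficient of variation of 5.68%, and IL-33 replicate 4 was well below the other 3. Gaa, the glycogen-degrading glucosidase, lies on the same chromosome as Sgsh (chr11:119267887-119285454) and averaged 812 ± 352 in IL-33 and 1400.3 ± 538 in PBS libraries (−0.77 ± 0.56, adjusted p = 0.472). Neu1, the sialidase, Ctbs, a chitobiase, and Manba, the beta-mannosidase, had adjusted p of 0.678, 0.459 and 0.628. Within the IL-33 group Ctbs ranged from 1.91 to 939 and Manba from 0 to 483.

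The 5 members that handle cholesterol, lipids and lipid anchors gave no call. Npc2 binds cholesterol in the lumen and passes it to the membrane protein Npc1. Npc2 was at 7963, 11005, 13842 and 9004 after PBS, and 13946, 10413, 12382 and 9597 in the IL-33 libraries (0.16 ± 0.23, adjusted p = 0.707). Its groups overlapped. Npc1 averaged 1099 ± 363 in IL-33 and 1656 ± 519 in PBS libraries (−0.60 ± 0.47, adjusted p = 0.513). Lipa, the acid lipase that frees cholesterol from its esters, was at 1205 ± 742 and 2167 ± 580.4 (−0.97 ± 0.48, adjusted p = 0.274). Ppt1, which removes palmitate from proteins, was at 1660.1 ± 674 and 2781 ± 1097, and Plbd2, a phospholipase B-like protein, at 1152 ± 947 and 1700 ± 816. Plbd2 ranged from 4.78 in IL-33 replicate 4 to 2301 in IL-33 replicate 1.

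The 2 peptidases and progranulin also gave no call. Grn, progranulin, which is cleaved to granulins in the lysosome, was the second most abundant member at 27102, 37333, 52939 and 28706 after PBS and 33106, 16443, 19221 and 30573 after IL-33 (−0.57 ± 0.24, adjusted p = 0.188). Its groups overlapped, and quantile normalization gave an adjusted p of 0.00483. Tpp1, a tripeptidyl peptidase, was at 5579.6, 5801 and 5939.8 in IL-33 replicates 1 to 3 and at 17455 in replicate 4, against 8892 to 13074 after PBS. The first 3 lay below the PBS range and the last above it, so that the difference was −0.48 ± 0.32 (adjusted p = 0.428) and −0.88 without replicate 4 (adjusted p = 0.0208). Lgmn, the asparagine endopeptidase that processes cathepsins, varied widely within PBS, from 2082 to 20856, and was at 3283 to 14023 after IL-33 (0.01 ± 0.55, adjusted p = 0.997).

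None of the 5 membrane proteins passed. Cd68, a macrophage marker of late endosomes and lysosomes, was at 8273, 10524, 12076 and 7499.8 after PBS, and 8567, 7888, 9496 and 11491 in the IL-33 libraries (−0.02 ± 0.24, adjusted p = 0.967). Lamp1 was at 12793, 13564, 6383 and 13114 after PBS, and at 6182, 13497, 24842 and 3656 after IL-33 (−0.23 ± 0.43, adjusted p = 0.776). The IL-33 values of Lamp1 enclosed the whole PBS range. Lamp2, the related protein needed for chaperone-mediated autophagy, averaged 8244 ± 3516 in IL-33 and 6896 ± 1559 in PBS libraries (0.21 ± 0.29, adjusted p = 0.705). Cd63, a tetraspanin, was at 14174, 10037, 8139 and 6083 after IL-33 and at 9259, 12186, 18071 and 11621 after PBS (−0.44 ± 0.27, adjusted p = 0.398). Mcoln1, the calcium channel of the lysosomal membrane, was low at 37.2 to 741 after IL-33 and 324 to 970.4 after PBS (−2.06 ± 0.98, adjusted p = 0.252).

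Tfeb, the transcription factor of lysosomal genes, was low in every library. It was at 0.847, 288, 152 and 151 after PBS, and 336, 73.6, 0 and 0 in the IL-33 libraries (−2.24 ± 2.47, adjusted p = 0.621). The highest value was an IL-33 library and the 0.847 of PBS replicate 5 was 1 read. The difference stayed below 0 without each single library (−3.91 to −1.02) and was 1.42 without IL-33 replicates 3 and 4 together. In the sexes apart it was 2.78 in females and −7.25 in males. The male IL-33 libraries, replicates 3 and 4, were those at 0 and also had the fewest detected genes. Both groups held libraries with 1 read or none, and the difference did not pass the test.

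Summed over the 35 members found by symbol, the lysosomal genes took 1.51%, 1.58%, 1.57% and 1.59% of all normalised reads in PBS replicates 5 to 8. They took 1.02%, 0.974%, 1.22% and 0.975% in IL-33 replicates 1 to 4. Group means were thus 1.56 ± 0.0350% for PBS and 1.05 ± 0.118% for IL-33 (SD over 4 libraries), and the groups did not overlap. The summed normalised count was 252983 ± 6815 after PBS and 188514 ± 22061 after IL-33. The 3 most abundant members of each library, always with Psap and Grn among them, made up 48.2% to 57.3% of its sum. The 100 genes with the largest rise took 3.28% to 4.34% of reads after IL-33 and at most 0.0285% after PBS. They were picked by their log2 difference in these same libraries, not by reads gained, so a rise in their share was fixed by the choice. With those genes taken out of the total, the members' share after IL-33 was 1.09 ± 0.120%, against 1.56 ± 0.0350% after PBS.

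**Figure D4:**
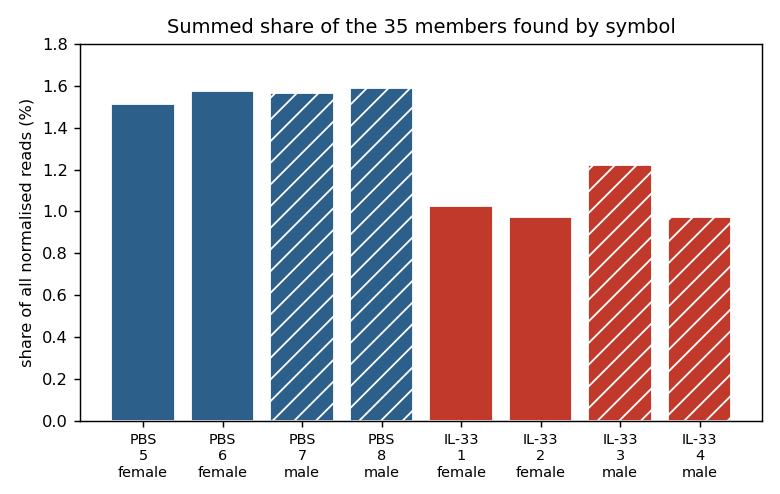
Share of all normalised reads (%, axis from 0) taken by the 35 members found by symbol, 1 bar per library, with hatched bars for males. The 4 PBS bars lie between 1.51% and 1.59% and the 4 IL-33 bars between 0.974% and 1.22%.

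The members varied more between IL-33 libraries than between PBS libraries. The coefficient of variation was higher after IL-33 for 30 of 36 members, with a median of 66.4% after IL-33 and 32.1% after PBS. Over 12782 tested genes with reads in both groups it was higher after IL-33 for 66.4%, with medians of 89.0% and 67.3%. All 12 members with a mean under 1000 were more variable after IL-33 (median 114% against 43.7%), as were 18 of the 24 more abundant ones (45.3% against 29.5%). Spread was not counted over all genes of like abundance, so this split has no background beside it. IL-33 replicates 3 and 4, which had the fewest detected genes, also held each value of 0 among the members after IL-33. Without this pair of libraries the same 4 members were called lower, 33 of 36 differences were below 0 and the members' median was −0.76, against −0.13 for all genes.

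**Figure D5:**
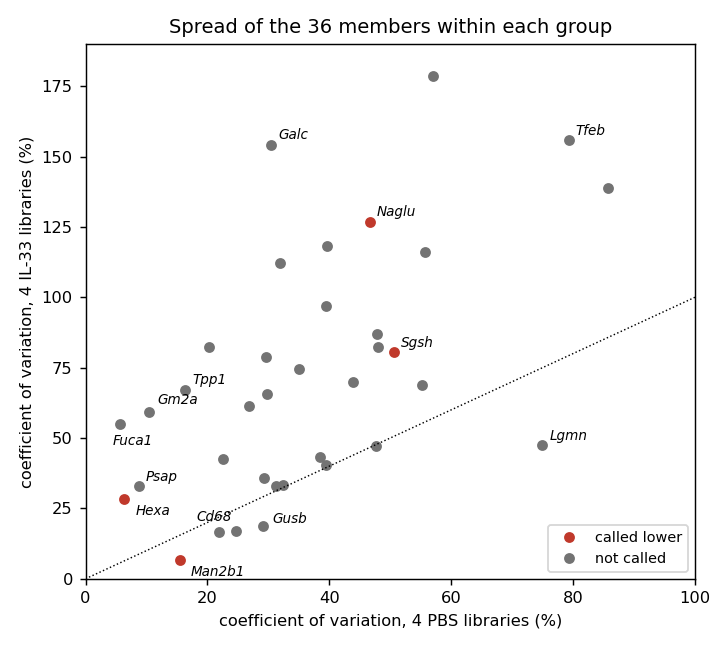
Coefficient of variation (SD over mean, %) of each of the 36 genes across the 4 PBS libraries (x axis) and across the 4 IL-33 libraries (y axis), with the dotted line at equal spread. Points for 30 of 36 genes lie above the line; Man2b1, Gusb, Cd68 and Lgmn are among those below it.

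The response of the members was compared between the sexes. The interaction of treatment with sex was called by limma for 0 of 36 members and for 0 of 13877 tested genes (0.0%), with 2 members and 809 genes at an unadjusted p under 0.05. The 2 members were Cd63 and Tfeb. For Cd63 the difference was 0.17 in females and −1.04 in males (interaction −1.21, unadjusted p = 0.0302, adjusted p = 0.783). In each sex 2 libraries stood against 2, and the direction was below 0 in both sexes for 24 of 36 members and opposite for 12. Directions in the sexes were not counted over all genes. The male IL-33 libraries, replicates 3 and 4, had the fewest genes with at least 10 reads (8948 and 7958). A different response in males and lower detection in these libraries therefore cannot be told apart. Hexa went from a mean of 16312 to 8712 in females and from 17902 to 5900 in males.

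Other genes of the lysosome were described from lists of 133 genes, of which 128 were tested, 9 fell and 3 rose. Their median difference was −0.44 in limma and −0.29 in edgeR. Among 28 tested hydrolases outside the members 2 rose and 2 fell. The amidase gene Naaa rose from 514 ± 286 to 2452 ± 1171 (2.33 ± 0.59, adjusted p = 0.0216), while the phospholipase Pla2g15 fell from 5171 ± 1421 to 1803 ± 710.4 (−1.59 ± 0.39, adjusted p = 0.0188). Among 23 tested membrane proteins and transporters 1 rose and 4 fell. Slc15a3, a peptide and histidine transporter, rose from 2357 ± 905 to 16817 ± 6396 (2.82 ± 0.35, adjusted p = 2.23e-05). The cation channel Tpcn1 fell from 2046 ± 588 to 235 ± 215 (−4.15 ± 1.03, adjusted p = 0.0194), and Slc29a3, a nucleoside transporter, from 5874 ± 2504 to 1207 ± 403 (−2.24 ± 0.40, adjusted p = 0.00146).

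The proton pump that acidifies the lysosome gave no call in 17 tested subunits, of which 1 was lower and 2 higher at an unadjusted p under 0.05 in limma, and its median was −0.13. edgeR called 0 of these subunits and DESeq2 called 1, Tcirg1, higher. The subunit gene Atp6ap1 was its most abundant, with means of 7013 ± 2317 in PBS and 5358 ± 2507 in IL-33 libraries (adjusted p = 0.506). Of 20 genes for enzyme activation and sorting 2 fell and none rose. Sort1, sortilin, which carries progranulin and prosaposin to lysosomes, fell from 4508 ± 1708 to 724 ± 108 (−2.56 ± 0.43, adjusted p = 7.49e-04), a call kept in each alternative run on the whole data or without 1 library. Hps4, a subunit of a complex that forms lysosome-related organelles, fell from 3325 ± 1038 to 556 ± 753 (−4.39 ± 1.12, adjusted p = 0.0229) and was called neither by edgeR (adjusted p = 0.0873) nor by DESeq2 (0.147). In this list both count tools called Cln8 lower (adjusted p = 0.0456 in edgeR), which limma did not (0.0595).

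None of 20 regulators around TFEB, the folliculin complex and the Rag GTPases was called by limma, with 4 lower and 2 higher at an unadjusted p under 0.05, beside 19.4% of all tested genes in either direction. Their most abundant gene, the GTPase Rraga, averaged 2657 ± 605 in PBS and 6817 ± 4275 in IL-33 libraries (1.21 ± 0.37, adjusted p = 0.0666), and edgeR and DESeq2 each called it higher (0.0355 in edgeR). Of 20 autophagy genes 1 fell, Uvrag, which acts in autophagosome and endosome maturation, from 1828 ± 468 to 347 ± 204 (−2.56 ± 0.62, adjusted p = 0.0159). The counts called lower in these lists, 2 of 28, 4 of 23, 0 of 17, 2 of 20, 0 of 20 and 1 of 20, stand beside the 2.8% called lower of all genes.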

How the data were processed

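Per the labels' protocols, RNA of sorted hippocampal microglia was made into QuantSeq FWD libraries, whose reads come from transcript ends. The authors deposited 1 signal per gene and library, named normalized counts. In each library 100% of values were whole multiples of 1 step, within 0.01 read, so read counts were recovered. Listed without roles, per the submitters' processing notes, are DESeq2 1.24.0, HTSeq 0.9.0, STAR 2.5.4b, FastQC and the builds GRCm38 and mm10. The sources used here give neither strand setting nor duplicate handling, and 13 members share exon bases with another gene.

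Genes with a mean of at least 10 were tested on log2(value + 1) with limma 3.58.1 (R 4.3.3, variance trend, group alone, two-sided, Benjamini-Hochberg over all tested genes). On this scale the pseudocount shrinks changes of low genes, while single libraries near 0 enlarge differences of group means. Self-tests on simulated counts recovered known changes. They used the same fixed spread for every gene and changed only genes with PBS means well above the filter. That spread was not taken from these libraries, so the self-tests do not measure power or error for these values. edgeR 4.0.16 and DESeq2 1.42.0 on recovered reads (439 and 790 genes higher, 318 and 877 lower) were alternatives, beside pseudocounts of 0.5 and 5, other filters and scalings, and leaving out libraries. Intervals and the floor of 3 reads cover counting error alone. Symbols were checked against GENCODE M21: 1920 rows differed, 217 of them repeating another gene's symbol. The table has no values of other samples. Values in each library were given for called members, members without overlap, the 6 most abundant and Tfeb, with others chosen after their values were seen. In other lists up to 3 called genes with the largest change, or the most abundant gene, were named. Members and lists were chosen with earlier results of these data known. Some genes of these lists are counted in them but not reported here by name.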

Additional observations from a re-analysis of the deposited data

Results flagged for a closer look

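Of 72 groups of 4 values (36 members in each group), 6 held a library far from the other 3 by Dixon's test at the 95% level, where chance flags about 1 in 20. The value given is the gap to the nearest library over the whole range. Galns, by its Ensembl identifier, stood at 691 in IL-33 replicate 1 against 0 to 57.5 in the others (0.917). Smpd1 was at 299.8 in PBS replicate 5 against 1303 to 1327 (0.977), and Lamp1 at 6383 in PBS replicate 7 against 12793 to 13564 (0.893). Lipa was at 2311 in IL-33 replicate 3 against 734 to 923 (0.881). In IL-33 replicate 4, Tpp1 was at 17455 against 5579.6 to 5939.8 (0.970) and Lamp2 at 13492 against 6223 to 6978 (0.896).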

How the results depend on the processing

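The same 4 members, Hexa, Man2b1, Naglu and Sgsh, were called under pseudocounts of 0.5 and 5, a minimum mean of 50, TMM scaling, library weights, sex as a covariate, DESeq2 and leaving out IL-33 replicates 3 and 4, where fewest genes were detected. Members called lower numbered 1 without the variance trend, and 1 to 6 without single libraries (1 without PBS replicate 6 or 7, 2 without PBS replicate 8, 6 without IL-33 replicate 4), with 0 called higher throughout. Over all genes 424 were called higher and 388 lower. Without the variance trend these were 175 and 238, with DESeq2 790 and 877, and without a filter 204 were lower. Without single libraries they ranged from 305 to 432 higher and 153 to 531 lower, with 185, 153, 176 and 173 lower without PBS replicates 5 to 8. In the other lysosomal lists (3 higher, 9 lower) 1 was higher without a filter, 1 higher and 1 lower without the variance trend, 7 higher with DESeq2, 15 lower under quantile normalization and 14 lower without IL-33 replicates 3 and 4, and single libraries gave 1 to 4 higher and 5 to 15 lower (1 higher without PBS replicate 5 or 7, 5 lower without PBS replicate 6, 15 lower without IL-33 replicate 4). From contrasts within a sex, females alone gave 99 higher and 36 lower over all genes, 0 members lower, and 1 higher and 1 lower in the other lists. Males alone gave 141 and 121, 1 member lower (Hexa), and 0 and 2. The interaction gave 0 calls, and 0 to 5 without single libraries (5 without IL-33 replicate 3). The cause of these changes was not tested, beyond the fewer libraries in fits that leave some out. The difference in summed share, −0.513 percentage points, ranged from −0.570 to −0.487 without single libraries. The median of all genes shifted by 0.29 (log2) under quantile normalization, where all 36 members were below 0 and 34 below that median. No paired analysis was possible because the groups share no replicate numbers. Sgsh had at most 2 reads in an IL-33 library, so the size of its fall rests on counts near 0.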
